A study of Homo sapiens with 10 samples.

Results

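The E2F and DP genes encode the transcription factors that time entry into DNA replication, and their transcripts were followed in 10 HEK293 libraries. The members were the 10 genes E2F1 to E2F8, TFDP1 and TFDP2, found by giving each transcript accession its gene symbol. Of these 10 genes, 9 were matched, with 1 transcript each, among 24994 genes and unnamed transcripts in all, and TFDP2 was not analysed here. The deposited transcripts were NM_005225 for E2F1, NM_004091 for E2F2, NM_001949 for E2F3, NM_001950 for E2F4, NM_001951 for E2F5, NM_198256 for E2F6, NM_203394 for E2F7, NM_024680 for E2F8 and NM_007111 for TFDP1. All 9 passed the filter on low counts and were tested.

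HEK293 is a human embryonic kidney line transformed with adenovirus DNA, whose early proteins bind the retinoblastoma family, so it is a limited model of normal E2F control. Polyadenylated RNA was sequenced from 4 groups of 2 libraries, named A and B. They were cells grown with 1 mM 4-thiouridine (4SU, a uridine analogue that cells build into new RNA) for 12 to 14 h and irradiated with ultraviolet light at 365 nm, cells grown with 4SU alone, cells irradiated at 254 nm without 4SU, and untreated cells. The last pair, with 1 library each, was made from cells given an siRNA to HuR and from control cells given an siRNA to GFP. The study's title places these RNA profiles beside methods that crosslink RNA to the proteins bound to it. The labels do not state whether the 2 libraries of a group were separate cultures, and p-values reflect the spread between these samples alone.

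An E2F protein binds the promoters of cell cycle genes, for most members together with a DP protein encoded by TFDP1 or TFDP2. E2F1, E2F2 and E2F3 are known as activators, which the retinoblastoma protein holds inactive until cyclin-dependent kinases phosphorylate it. E2F4 and E2F5 repress together with the retinoblastoma relatives encoded by RBL1 and RBL2, E2F6 represses with a Polycomb complex, and E2F7 and E2F8 repress without pocket proteins or a DP partner. Several E2F genes are themselves E2F targets.

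Promoter letters of 4 members are shown first, because E2F1, E2F2 and E2F3 are known to be regulated through E2F sites and E2F4 stands beside them as a repressor. RefSeq (GRCh38.p14) gave windows of 250 bases before to 50 bases after the start of 8 of the 10 members, and the last 100 bases before the start are printed 5′ to 3′ on the gene's strand. They lie at chr20:33686386-33686485 (minus strand), chr1:23531234-23531333 (minus strand), chr6:20401779-20401878 (plus strand) and chr16:67192055-67192154 (plus strand). Capitals mark motif letters.
E2F1 promoter: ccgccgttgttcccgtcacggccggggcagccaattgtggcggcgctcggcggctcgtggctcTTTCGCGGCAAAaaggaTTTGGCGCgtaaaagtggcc
E2F2 promoter: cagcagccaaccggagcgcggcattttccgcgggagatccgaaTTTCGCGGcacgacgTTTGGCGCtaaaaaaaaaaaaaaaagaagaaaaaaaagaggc
E2F3 promoter: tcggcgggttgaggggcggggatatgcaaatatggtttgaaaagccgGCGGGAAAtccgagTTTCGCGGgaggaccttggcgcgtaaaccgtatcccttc
E2F4 promoter: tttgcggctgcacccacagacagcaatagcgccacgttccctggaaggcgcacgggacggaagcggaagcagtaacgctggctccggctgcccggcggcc
The motifs searched on both strands were TTTGGCGC, TTTCGCGC, TTTCCCGC and TTTGCCGC, and TTTCGCGG was added after the sequences were seen. At least 1 of the first 4 was in 3.31% of 35116 windows in RefSeq, and TTTCGCGG was in 0.42%. Because TTTCGCGG was added after these sequences were seen, its share is no background for its matches in them. The E2F1 window held TTTCGCGG from position -37, TTTGCCGC on the other strand from -33, overlapping it, and TTTGGCGC from -20, counted from the start. The E2F2 window held TTTCGCGG from -57 and TTTGGCGC from -42. The first of 2 E2F3 windows held TTTCCCGC on the other strand from -53 and TTTCGCGG from -39. The TFDP1 window held TTTCGCGC on the other strand from -120. None of the letters searched was in the windows of E2F4, E2F6, E2F7 and TFDP2. E2F5 and E2F8 had no window. The matches are letters in a reference sequence, and binding was not measured here.

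The 8 libraries of the 4 groups held 2238569 to 3099769 tags, and the siRNA pair held 9016803 tags (HuR siRNA) and 8688262 tags (GFP siRNA). By library total, a count of 3 tags corresponds to between 0.968 and 1.34 counts per 1000000 tags (CPM) in the 8 libraries. The CPM given below are scaled by TMM normalisation factors instead, so this floor does not apply to them directly. On that scale the 3 and 4 tags of E2F8 after 4SU with 365 nm averaged 3.08 CPM. The line's markers EPCAM, KRT18 and IRS4 were present in all 8 libraries, from 14.6 CPM upward, while VIM lay between 0 and 16.8 CPM. KRT8 and PAX2, also listed for the line, stayed at or below 3.58 CPM. Of the markers of other cell types, DCN had no tag in the 8 libraries, and PTPRC, PECAM1 and VWF stayed at or below 1.12 CPM. COL1A1, a fibroblast collagen gene, had 57.2 and 63.8 CPM after 4SU with 365 nm and between 11.1 and 17.3 CPM in the other 6 libraries, and its part in the results was not tested. Both crosslinked groups held shorter transcripts, with a tag-weighted median length of 1147 and 1431 nt after 4SU with 365 nm against 2373 and 2850 nt with 4SU alone, and of 1534 and 1305 nt after 254 nm against 2666 and 3029 nt in untreated cells. Fold changes of the members called after crosslinking are given beside their values after a correction for transcript length.

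In untreated cells TFDP1 was the most abundant member per transcript length and E2F1 led the E2F genes. Levels are in tags per 1000 nt per 1000000 tags after scaling by TMM factors (mean ± SD, n = 2). They were 86.3 ± 24.6 for TFDP1, 39.8 ± 6.38 for E2F1 and 22.9 ± 5.21 for E2F4. E2F3 followed at 7.42 ± 2.41, E2F7 at 7.19 ± 1.49, E2F5 at 5.11 ± 1.41 and E2F2 at 3.85 ± 0.313 on the same scale. E2F8 at 2.27 ± 0.118 and E2F6 at 1.93 ± 1.1 were lowest. Within this order the neighbours E2F3 and E2F7, E2F7 and E2F5, E2F5 and E2F2, and E2F8 and E2F6 lay within the sum of their SDs, and the steps from TFDP1 to E2F1, E2F1 to E2F4, E2F4 to E2F3 and E2F2 to E2F8 exceeded it. In bulk RNA, fewer cells expressing a gene and less of its RNA per cell cannot be told apart.

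The order of the top 3 members per length was the same in 4SU cells. In TMM-scaled tags per 1000 nt per 1000000 tags, TFDP1 was at 82.3 ± 0.519, E2F1 at 47.2 ± 0.616 and E2F4 at 30.7 ± 2.19. After 4SU with 365 nm these levels were 69.7 ± 0.951, 29.2 ± 3.45 and 14.1 ± 4.10 for TFDP1, E2F1 and E2F4. After 254 nm E2F1 stood at 62.3 ± 3.41, above TFDP1 at 40.4 ± 8.62 and E2F4 at 38.5 ± 5.49. TFDP1 and E2F4 lay within the sum of their SDs after 254 nm.

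The members also differed in length and base composition. E2F7, at 5742 nt, E2F2, at 5273 nt, and E2F3, at 5050 nt, were the longest, against a median of 2751 nt over the tested genes, and E2F5 was the shortest at 1743 nt. E2F1, E2F4 and E2F2 were the richest in G and C, at 62.5%, 58.1% and 57.5% of the bases of the GENCODE transcript of the same accession, against a median of 48.9% over 10825 tested genes. E2F7 had the highest share of U among the members, at 29%, and E2F1 the lowest at 19.8%, against a median of 24.9%. Tags matching several transcripts were split in at least 1 library for E2F2, E2F3, E2F8 and TFDP1, whose values are uncertain to that extent.

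**Figure D1:**
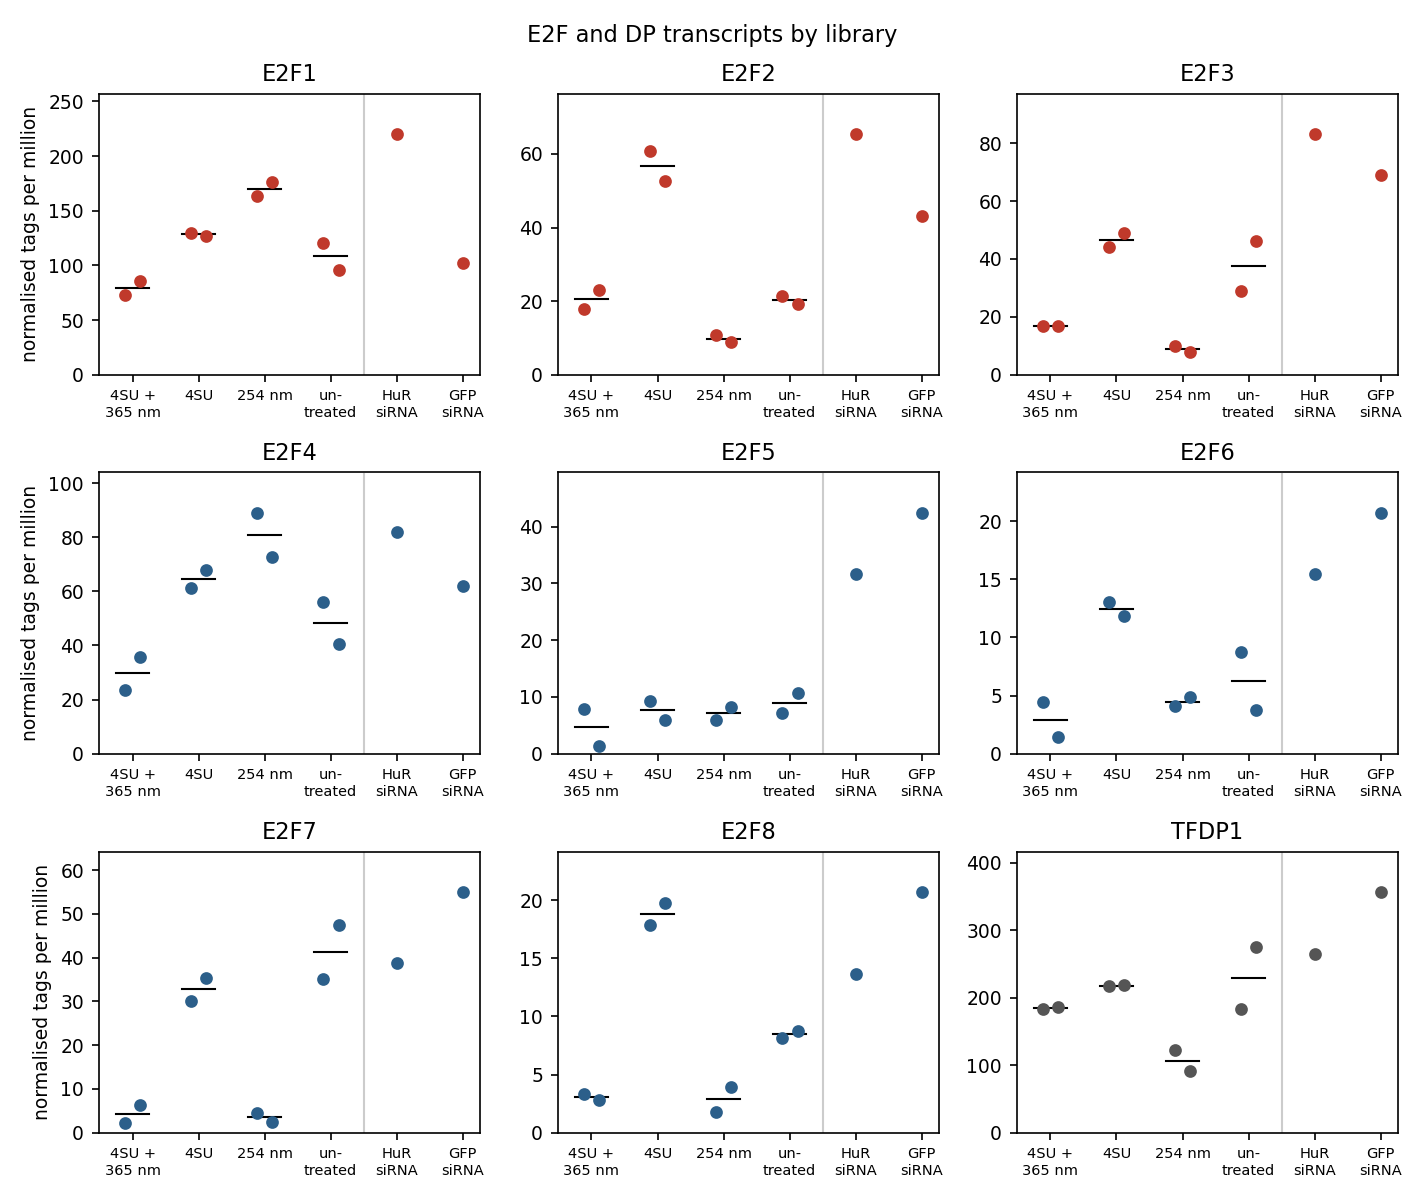
Normalised tags per 1000000 (linear axis from 0, own scale per gene) of the 9 members in each library, with 1 point per library and a line at the mean of 2 libraries. E2F7 and E2F8 are low in both crosslinked groups, E2F1 and E2F4 are highest after 254 nm among the 4 groups, and the siRNA pair right of the grey line has 1 library per siRNA and a scale of its own.

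Growth in 4SU alone was compared with untreated cells, which separates the analogue from the irradiation. E2F2 was the 1 member called at an adjusted p under 0.05, and it was higher. Over all 13747 genes tested, 7.52% were called, 3.84% as higher and 3.68% as lower. E2F2, an activator linked to S-phase genes, had 60.7 and 52.7 CPM in 4SU cells, against 21.5 and 19.2 CPM in untreated cells. Both 4SU libraries lay above both untreated libraries. Its log2 fold change was 1.48 ± 0.35 (SE), a 2.78-fold higher level, with an adjusted p of 0.00514 in edgeR's quasi-likelihood test. Without 4SU library A the adjusted p was 0.111 at a log2 fold change of 1.35.

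The atypical repressor E2F8 had 17.9 and 19.8 CPM in 4SU cells, against 8.16 and 8.78 CPM in untreated cells. The groups did not overlap, and the log2 fold change of 1.15 ± 0.41 had an adjusted p of 0.0732 in edgeR. With the length correction it was 1.2, with an adjusted p of 0.0346. E2F6, which represses with Polycomb proteins, had 13.1 and 11.9 CPM in 4SU cells, against 8.76 and 3.73 CPM in untreated cells. Its 4SU libraries were higher than both untreated ones, with a log2 fold change of 0.96 ± 0.45 (edgeR adjusted p 0.194). The other 6 members had log2 fold changes between -0.33 (E2F7) and 0.42 (E2F4), and none was called. The median log2 fold change was 0.32 over the 9 members and 0.02 over all genes tested.

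**Figure D2:**
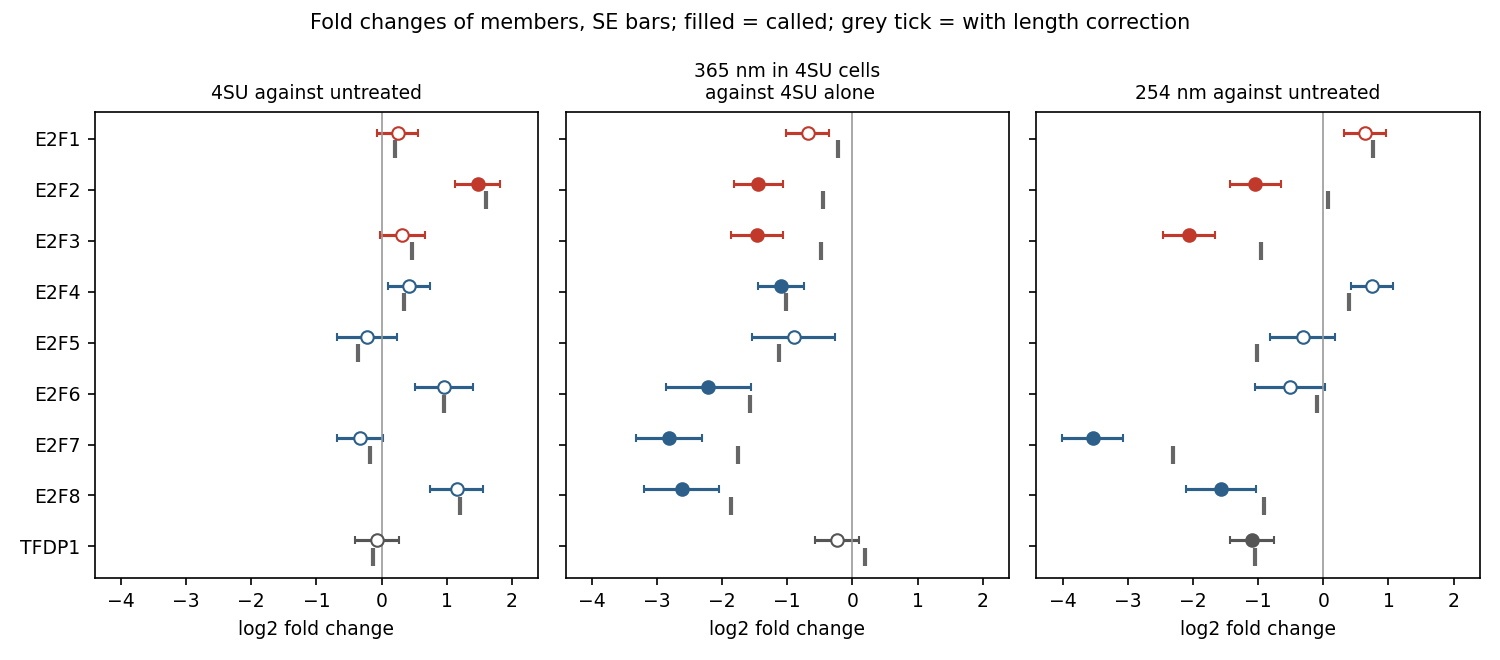
Log2 fold changes of the 9 members in 3 comparisons with SE bars, filled where called at an adjusted p under 0.05 in edgeR, and a grey tick for the value after the length correction. The filled points are E2F2 with 4SU, 6 members lower after 365 nm and 5 lower after 254 nm, and the ticks of E2F2 and E2F3 lie closer to 0 than the points in both crosslinking panels.

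Irradiation at 365 nm was then compared within 4SU-grown cells. Of the 9 members, 6 fell, namely the activators E2F2 and E2F3 and the repressors E2F4, E2F6, E2F7 and E2F8, and none rose (at an unadjusted p under 0.05 and in DESeq2 also 0). The background was high, with 59.7% of genes called, 26.2% as higher and 33.5% as lower. The median log2 fold change was -1.44 over the members and -0.50 over all genes, with -1.44 for the 3 activators and -2.21 for the 5 repressors. The difference between activators and repressors was not tested. E2F5, E2F6, E2F7 and E2F8 had fewer than 10 tags in each library after 4SU with 365 nm and passed the filter through the other groups. The counts and medians, and the fold changes and adjusted p of these genes, are therefore descriptions and carry no further weight.

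E2F7, a repressor of E2F1 transcription, had 2.24 and 6.31 CPM after 4SU with 365 nm, against 30.1 and 35.4 CPM with 4SU alone. The groups were far apart, with 2 and 9 tags behind the crosslinked values. Its log2 fold change was -2.81 ± 0.50, with an adjusted p of 1.09e-05 in edgeR, and -1.75 with an adjusted p of 0.00312 after the length correction. Without 4SU with 365 nm library B its log2 fold change was -3.85.

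E2F8, its close relative, had 3.37 and 2.80 CPM after 4SU with 365 nm, against 17.9 and 19.8 CPM with 4SU alone. Both crosslinked libraries, with 3 and 4 tags, lay below both others. The log2 fold change was -2.62 ± 0.58, within its SE of that of E2F7, with an edgeR adjusted p of 0.000216, and it was -1.86 with 0.00747 after the length correction. E2F6 had 4.49 and 1.40 CPM after 4SU with 365 nm, against 13.1 and 11.9 CPM with 4SU alone. The groups did not overlap, but the crosslinked values rest on 4 and 2 tags. Its log2 fold change was -2.21 ± 0.65, with an edgeR adjusted p of 0.00384, and it was -1.58 with 0.0476 after the length correction. It was -3.11 without 4SU with 365 nm library A, and -1.47 with an adjusted p of 0.152 without library B.

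E2F4, the main repressor of resting cells, had 23.6 and 35.7 CPM after 4SU with 365 nm, against 61.3 and 67.8 CPM with 4SU alone. Both crosslinked libraries were lower. Its log2 fold change was -1.10 ± 0.36 with an edgeR adjusted p of 0.00802, and after the length correction -1.01 with 0.0112. The adjusted p was 0.127 without 4SU with 365 nm library A and 0.058 in DESeq2.

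Among the activators, E2F2 had 17.9 and 23.1 CPM after 4SU with 365 nm, against 60.7 and 52.7 CPM with 4SU alone. E2F3, an activator needed for proliferation in mouse cells, had 16.8 and 16.8 CPM after 4SU with 365 nm, against 44.3 and 48.8 CPM with 4SU alone. Neither gene's groups overlapped. The log2 fold changes were -1.44 ± 0.38 for E2F2 (edgeR adjusted p 0.00136) and -1.47 ± 0.40 for E2F3 (0.00179). After the length correction they were -0.45 with an adjusted p of 0.294 for E2F2 and -0.49 with 0.259 for E2F3, so both calls were lost. Both transcripts are long, and their uncorrected values lay near the median of genes of like length in the plot of fold change against length.

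E2F1, the first E2F factor described, had 72.9 and 86.2 CPM after 4SU with 365 nm, against 130 and 127 CPM with 4SU alone. Both crosslinked libraries were lower, but the log2 fold change of -0.69 ± 0.33 had an edgeR adjusted p of 0.0714, and it was -0.22 after the length correction. TFDP1, the DP partner, had 183 and 186 CPM after 4SU with 365 nm, against 217 and 219 CPM with 4SU alone. Its log2 fold change of -0.24 ± 0.34 had an adjusted p of 0.549, and the sign changed to 0.20 with the length correction and to 0.02 with RLE factors. E2F5 had 7.85 and 1.40 CPM after 4SU with 365 nm, against 9.37 and 6.03 CPM with 4SU alone. These overlapped, with 7 and 2 tags behind the crosslinked values, and its log2 fold change of -0.90 ± 0.64 was not called (edgeR adjusted p 0.217).

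**Figure D3:**
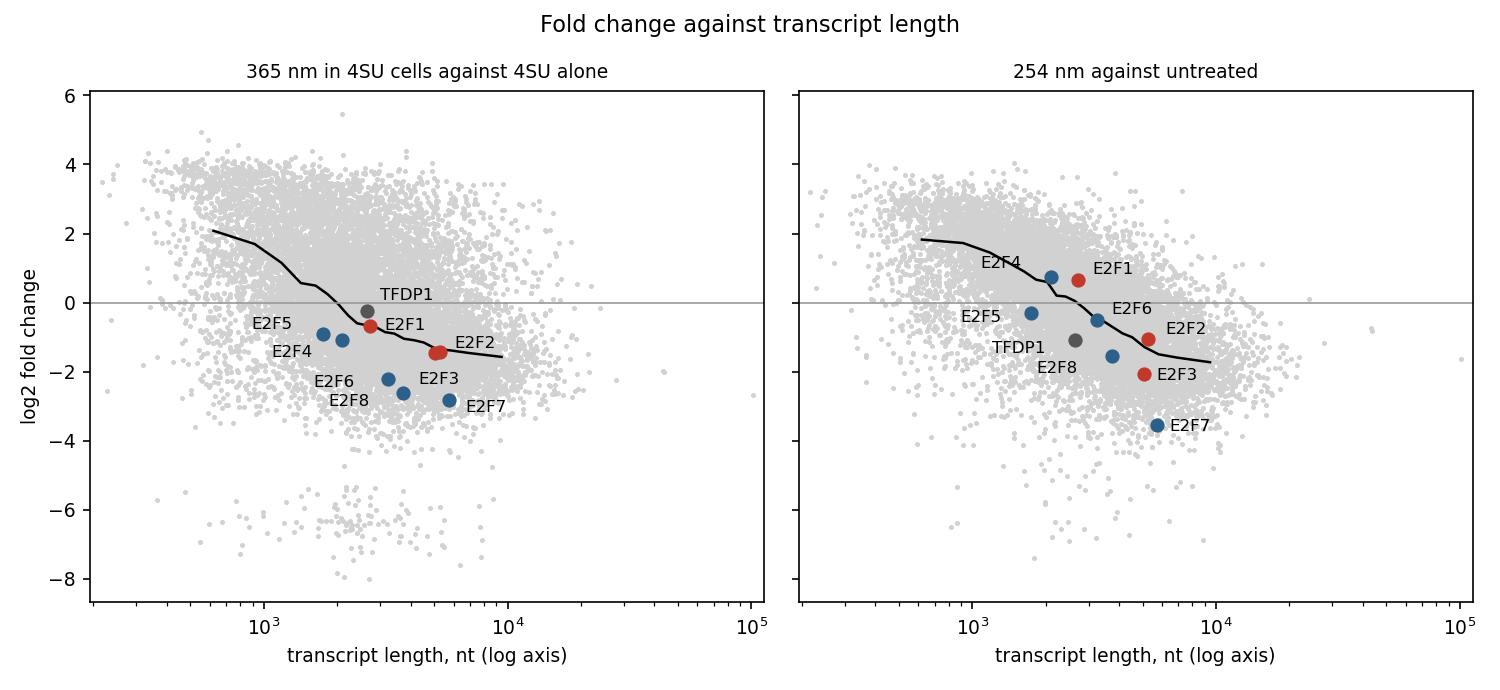
Log2 fold change against transcript length (log axis) for all tested genes in grey, with a line at the median of successive length bins, and the members in red (activators), blue (repressors) and dark grey (TFDP1). E2F2 and E2F3 lie close to the line after 365 nm, while E2F6, E2F7 and E2F8 lie below it, and E2F7 is the lowest member in both panels.

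Irradiation at 254 nm was compared with untreated cells. Of the 9 members, 5 fell, namely E2F2, E2F3, E2F7, E2F8 and TFDP1, and none rose (1, E2F4, at an unadjusted p under 0.05, and 0 in DESeq2). With RLE factors E2F4 was called higher, as it was without untreated library A. The background was 53.2% of genes called, 25.2% as higher and 28% as lower. The median log2 fold change was -1.04 over the members and -0.14 over all genes. E2F6, E2F7 and E2F8 had at most 10 tags in each library after 254 nm and passed the filter through groups with higher levels. These counts and medians, and the fold changes and adjusted p of these genes, are therefore descriptions too.

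E2F7 had 4.54 and 2.44 CPM after 254 nm, against 35.2 and 47.4 CPM in untreated cells. Both crosslinked libraries, with 10 and 5 tags, lay far below both untreated ones. The log2 fold change was -3.53 ± 0.47, with an edgeR adjusted p of 3.24e-07. With the length correction it was -2.31 with an adjusted p of 0.000195.

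E2F3 had 10.0 and 7.81 CPM after 254 nm, against 28.9 and 46.0 CPM in untreated cells. All crosslinked values were lower, with a log2 fold change of -2.06 ± 0.40 (edgeR adjusted p 4.25e-05), or -0.96 with 0.0331 after the length correction. E2F2 had 10.9 and 8.79 CPM after 254 nm, against 21.5 and 19.2 CPM in untreated cells. Its groups did not overlap either. The log2 fold change was -1.04 ± 0.39 with an edgeR adjusted p of 0.0234, and with the length correction it was 0.07 with an adjusted p of 0.899. Without 254 nm library A the adjusted p for E2F2 was 0.0768, and without library B 0.165, and it was 0.064 with the compared groups alone.

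E2F8 had 1.82 and 3.91 CPM after 254 nm, against 8.16 and 8.78 CPM in untreated cells. The crosslinked libraries, with 4 and 8 tags, were lower. Its log2 fold change was -1.56 ± 0.54 with an edgeR adjusted p of 0.0135. With the length correction it was -0.90 with an adjusted p of 0.166. It was -1.05 with 0.207 without 254 nm library A, and -2.20 without library B.

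TFDP1 had 123 and 90.8 CPM after 254 nm, against 183 and 275 CPM in untreated cells. Both crosslinked libraries were lower, although the untreated ones differed widely. The log2 fold change was -1.10 ± 0.34 with an edgeR adjusted p of 0.00679, and -1.05 with 0.00803 after the length correction. The adjusted p was 0.119 without 254 nm library B and 0.0827 without untreated library B.

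With TMM factors E2F1 and E2F4 had positive log2 fold changes at 254 nm, while those of the other members were negative, not all of them called. E2F1 had 163 and 176 CPM after 254 nm, against 121 and 96.1 CPM in untreated cells. E2F4 had 89.1 and 72.8 CPM after 254 nm, against 55.9 and 40.5 CPM in untreated cells. For each gene both crosslinked libraries were above both untreated ones. The log2 fold changes were 0.65 ± 0.32 for E2F1 (edgeR adjusted p 0.0865) and 0.74 ± 0.33 for E2F4 (0.0516), so neither was called. After the length correction the value for E2F1 was 0.76 with an adjusted p of 0.0369 and that for E2F4 was 0.39 with 0.304. When library totals replaced the TMM factors, which moved the median of all genes to -0.99, they were -0.22 for E2F1 and -0.10 for E2F4. E2F5 had 5.91 and 8.30 CPM after 254 nm, against 7.16 and 10.6 CPM in untreated cells, and E2F6 had 4.09 and 4.88 CPM after 254 nm, against 8.76 and 3.73 CPM in untreated cells. The groups of both genes overlapped, and their log2 fold changes of -0.32 and -0.50 were not called.

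Whether the 365 nm effect in 4SU cells differed from the 254 nm effect was tested as the difference of both log2 fold changes. Cells were irradiated at 365 nm only with 4SU and at 254 nm only without it. Wavelength and 4SU therefore cannot be told apart in this difference. Of the 9 members, E2F1 and E2F4 were called, both lower at 365 nm, where 17.1% of all genes were called and 7.08% as lower. For E2F4 the effects were -1.10 at 365 nm and 0.74 at 254 nm, and their difference was -1.84 ± 0.48 with an edgeR adjusted p of 0.00633. For E2F1 the effects were -0.69 at 365 nm and 0.65 at 254 nm, and their difference was -1.33 ± 0.46 with an edgeR adjusted p of 0.0400. With the length correction the difference was -1.40 with an adjusted p of 0.0225 for E2F4 and -0.98 with 0.0934 for E2F1.

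The E2F4 difference lost its call without 4SU with 365 nm library A (edgeR adjusted p 0.0719). The E2F1 difference lost its call in DESeq2 and without each of 7 libraries in turn, with adjusted p between 0.0894 and 0.174. It was kept without untreated library A. Without the length correction E2F2, E2F3, E2F7 and E2F8 were called lower at both wavelengths. A difference between the effects was not called for these 4 genes, at -0.40, 0.59, 0.72 and -1.06 with edgeR adjusted p between 0.411 and 0.652. With the length correction E2F7 alone was still called lower at both wavelengths. E2F2 and E2F3 lost their calls at 365 nm, and E2F2 and E2F8 lost theirs at the shorter wavelength. The TFDP1 difference was 0.86 without a call, and it was 1.24 with an adjusted p of 0.0375 after the length correction.

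The balance of both classes was described by the summed level of E2F1 to E2F3 over that of E2F4 to E2F8. Both sums are in TMM-scaled tags per 1000 nt per 1000000 tags. The ratio was 1.82 and 1.96 after 4SU with 365 nm, against 1.40 and 1.31 with 4SU alone. It was 1.32 and 1.6 after 254 nm, against 1.30 and 1.29 in untreated cells. The libraries of 4SU with 365 nm were the highest of the 8, and the other 6 lay between 1.29 and 1.6. Behind the 365 nm values, the activators summed to 33.5 and 39.4 and the repressors to 18.4 and 20.1, against 67.9 and 66.4 and 48.6 and 50.9 with 4SU alone.

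E2F1 made up most of the activator sum in every library. Its share was 79.9% and 80.4% after 4SU with 365 nm, against 70.1% and 70.4% with 4SU alone, and 93.7% and 95.3% after 254 nm, against 81.9% and 73.5% in untreated cells. E2F7 and E2F8 together gave 7.02% and 9.20% of the repressor sum after 4SU with 365 nm, against 20.6% and 22.5% with 4SU alone. They gave 2.64% and 3.47% after 254 nm, against 19.9% and 28.6% in untreated cells. In both pairs of groups the crosslinked libraries had the higher E2F1 share and the lower share of atypical repressors, without overlap. These shares were not corrected for the length trend, E2F2, E2F3 and E2F7 are the longest members, and the part of length was not tested. E2F7 and E2F8 had at most 10 tags each per crosslinked library and passed the filter through the other groups, so their shares are descriptions. The ratio, being a score over the members, was not tested.

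**Figure D4:**
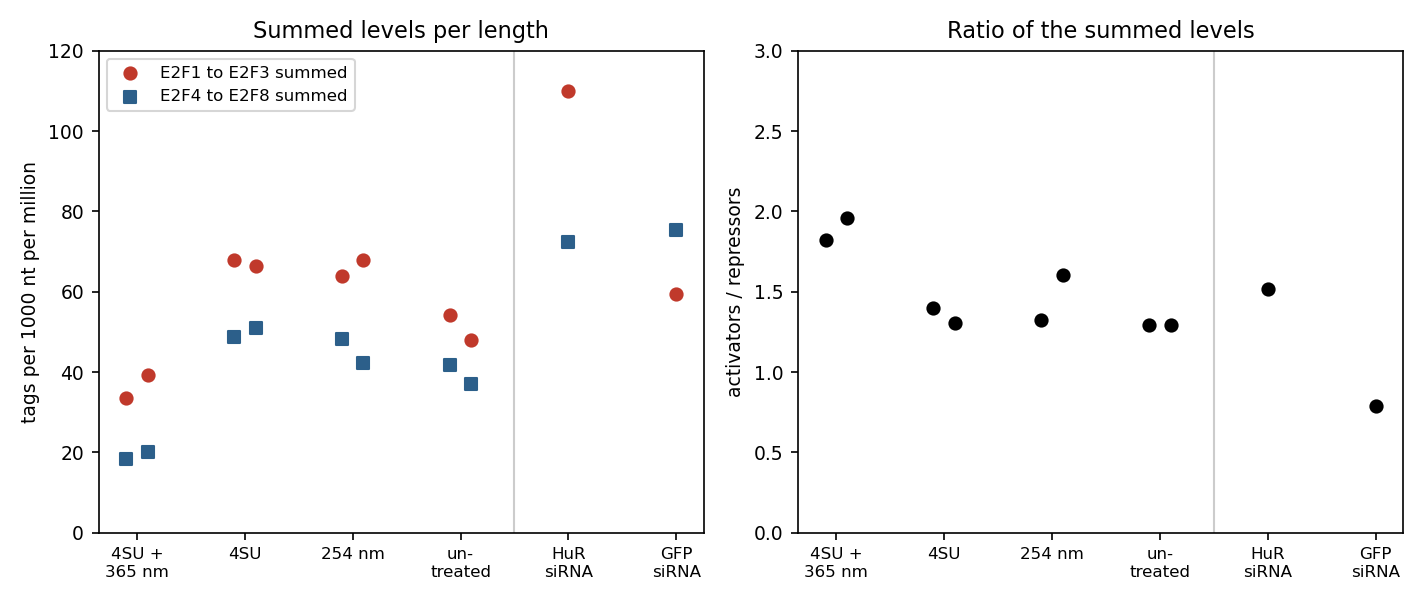
Left, summed TMM-scaled level per 1000 nt per 1000000 tags of the activators E2F1 to E2F3 (circles) and the repressors E2F4 to E2F8 (squares) in each library. Right, their ratio, both axes from 0. Activators exceed repressors in 9 of 10 libraries, and the GFP siRNA library, with a ratio of 0.789, is the exception.

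The siRNA pair was compared as a description, since each siRNA has 1 library. HuR, encoded by ELAVL1, is an RNA-binding protein of U-rich and AU-rich sequences that stabilises many mRNAs. ELAVL1 had 638 tags in the HuR siRNA library and 1905 in the GFP siRNA library, a log2 ratio of -1.54 with a 95% exact counting interval from -1.67 to -1.41. Counting intervals and floors cover counting error only. The tag-weighted median length was 2674 nt in the HuR siRNA library and 3020 nt in the GFP siRNA library. No length correction was made for this pair, and the part of length was not tested. All 3 activators and E2F4 had higher levels with the HuR siRNA, and E2F5, E2F6, E2F7, E2F8 and TFDP1 had lower ones.

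E2F1 had 1926 tags with the HuR siRNA and 920 with the GFP siRNA, a 2.15-fold higher normalised level. Its log2 ratio of 1.11 (interval 0.99 to 1.22) lay at the 96.1 percentile of 17829 genes with at least 10 tags. E2F2 had 572 and 388 tags with the HuR and the GFP siRNA, at a log2 ratio of 0.60 (0.41 to 0.79). E2F3 had 727 tags with the HuR siRNA and 619 with the GFP siRNA, at 0.27 (0.11 to 0.43). E2F4, with 715 tags under the HuR siRNA and 556 under the GFP siRNA, was at 0.40 (0.24 to 0.56). The log2 ratio of E2F1 lay above the counting intervals of E2F2 and E2F3, which do not cover variation between libraries.

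E2F8 had 119 tags with the HuR siRNA and 186 with the GFP siRNA, at a log2 ratio of -0.61 (-0.95 to -0.27). E2F7 had 338 tags with the HuR siRNA and 494 with the GFP siRNA, at -0.51 (-0.71 to -0.31). TFDP1, the most deeply counted member, had 2319 and 3206 tags with the HuR and the GFP siRNA, at -0.43 (-0.51 to -0.35). E2F5 and E2F6 were each at -0.42, with intervals from -0.65 to -0.19 and from -0.75 to -0.10. Past 1.5-fold, 2 of 9 members were higher (E2F1 and E2F2), where 18.8% of all genes were, and 1 was lower (E2F8), where 21.2% of all genes were. With library totals in place of the TMM factors, E2F2 (log2 ratio 0.51) did not pass 1.5-fold and E2F7 (-0.60) did. The activator to repressor ratio was 1.52 with the HuR siRNA and 0.789 with the GFP siRNA. The untreated libraries, at 1.30 and 1.29, lay between these values, on a scale set separately.

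**Figure D5:**
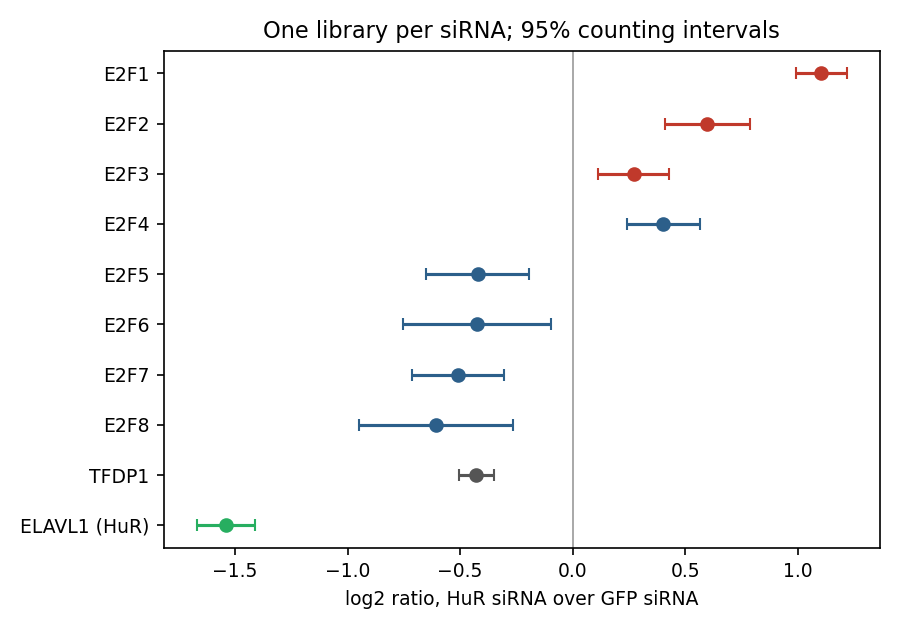
Log2 ratio of the HuR siRNA library over the GFP siRNA library for the 9 members and ELAVL1, with 95% exact counting intervals from 1 library per siRNA. E2F1 is highest at 1.11, E2F1 to E2F4 lie above 0, and E2F5 to E2F8 and TFDP1 lie below it with intervals that exclude 0.

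The pocket proteins that bind E2F factors, encoded by RB1, RBL1 and RBL2, were all lower in the HuR siRNA library, at log2 ratios of -1.30, -0.78 and -1.17. All 3 passed 1.5-fold, where 18.8% of all genes were higher and 21.2% lower. RB1 also differed widely between the untreated libraries, with a mean of 46.7 CPM and an SD of 32.9, so a difference between single libraries cannot be set apart from HuR. MYBL2, an E2F target that joins the MuvB complex in cycling cells, was at 0.82, and LIN37, a MuvB subunit, was at 0.65, the 2 of 5 MuvB genes past 1.5-fold. Of 10 genes of the E2F6 Polycomb complex, WDR5 alone passed it, at 0.79. Among 18 G1 cyclins, kinases and inhibitors, 6 were higher and 4 lower past 1.5-fold, led by CDKN1C at 1.11 and CCND3 at 0.87, and by CCND1 at -1.29 and SKP2 at -0.91. CDKN1C had only 44 tags with the HuR siRNA and 21 with the GFP siRNA (interval 0.33 to 1.93). Of 36 E2F targets of DNA replication, 6 were higher and 8 lower, led by CDT1 and GMNN, both at 0.96, and by RFC3 at -0.89 and TYMS at -0.78. Their median log2 ratio was -0.03 and that of all genes was -0.00.

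In the 4SU comparison the calls in the lists stand beside 3.84% of all genes called as higher and 3.68% as lower. Of 36 E2F targets tested, 2 fell and none rose (1 at an unadjusted p under 0.05, and 0 in DESeq2), at a list median of -0.23 against 0.02 over all genes. CDC6, a replication licensing factor with split tags, had a log2 fold change of -1.38, and CDC45, a helicase subunit, -1.22. Of 18 G1 genes, 2 fell, the cyclin gene CCNE1 at -1.62 and the inhibitor gene CDKN2B at -1.31. Of 3 pocket proteins RB1 fell, at -1.51 ± 0.41 with an edgeR adjusted p of 0.0156. RB1 had 13.1 and 19.2 CPM in 4SU cells, against 23.5 and 70.0 CPM in untreated cells, and the untreated libraries differed widely. Without 4SU library A all 5 calls were lost, with edgeR adjusted p of 0.206 (RB1), 0.0740 (CCNE1), 0.130 (CDKN2B), 0.153 (CDC6) and 0.303 (CDC45). Without 4SU library B the adjusted p was 0.0794 for CDKN2B and 0.0522 for CDC45, and without untreated library B it was 0.504 for RB1. DESeq2 did not call RB1, and with library totals CDC45 (-1.16) was not called. No MuvB gene of 5 and no Polycomb partner of 10 was called in edgeR, where 0 and 1 had an unadjusted p under 0.05, and DESeq2 called none in either list.

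At 365 nm in 4SU cells genes of the lists were called in both directions, where 26.2% of all genes were called as higher and 33.5% as lower. Of 36 E2F targets, 6 rose and 15 fell, at a median log2 fold change of -0.39 against -0.50 over all genes. GINS2, a helicase subunit gene, rose by 1.93, while RFC3 of the clamp loader fell by 1.92 and SLBP, the histone stem-loop binding protein gene, fell by 1.76 on the log2 scale. Of 18 G1 genes, 1 rose, the inhibitor gene CDKN2A at 3.47, and 10 fell, led by CDKN1B at -2.23 and CCNE2 at -2.14. Of 5 MuvB genes, MYBL2 rose at 2.39 and LIN37 at 1.13, and LIN52 at -1.95 and LIN54 at -1.55 fell. Of 10 Polycomb partners of E2F6, CBX3 rose at 1.34 and 5 fell, led by RYBP at -2.40 and MGA at -1.98. Of 3 pocket proteins, RBL2 fell at -1.68.

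Several of these calls were lost when 1 library was left out, which leaves 1 library in its group. Without 4SU with 365 nm library A the edgeR adjusted p was 0.383 for LIN37 and 0.106 for LIN52, and without library B it was 0.127 for CCNE2 and 0.282 for LIN54. Without 4SU library B it was 0.141 for LIN37, and without 4SU library A it was 0.0697 for LIN54. With the length correction RBL2 (-0.71), LIN54 (-0.48) and MGA (-0.67) lost their calls and LIN37 was at -0.02. With library totals LIN37 was at -0.84 and CBX3 at -0.57, and MYBL2 (0.47) and GINS2 (0.04) were not called. DESeq2 did not call LIN52 or LIN54. CDKN1B, CDKN2A, LIN52, LIN54, CBX3 and MGA have split tags in at least 1 library and are uncertain to that extent.

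At 254 nm all 3 pocket proteins fell, led by RB1 at a log2 fold change of -3.16 ± 0.49 (edgeR adjusted p 1.88e-06) and RBL1 at -2.15, the second with split tags. RB1 had 6.82 and 3.42 CPM after 254 nm, against 23.5 and 70.0 CPM in untreated cells. Over all genes 25.2% were called as higher and 28% as lower. Of 36 E2F targets, 11 rose and 7 fell, at a median of -0.20 against -0.14 over all genes. The thymidine kinase gene TK1 rose at 2.01 and GINS2 at 1.93, while GINS1, with split tags, fell at -2.93 and UHRF1, a regulator of DNA methylation, at -2.31. Of 5 MuvB genes, LIN37 at 2.3 and MYBL2 at 1.01 rose and 3 fell, led by LIN52 at -3.47 and RBBP4 at -2.06. Of 18 G1 genes, 4 rose, led by CDKN2A at 2.0 and CDKN2D at 1.2, and 8 fell, led by CDK6 at -2.25 and CCNE2 at -2.0. Of 10 Polycomb partners, RING1 rose at 1.19 and 4 fell, led by MGA at -2.70 and RYBP at -1.68.

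Without 254 nm library B the edgeR adjusted p was 0.128 for MYBL2, 0.0593 for RING1, 0.0556 for RYBP and 0.140 for CDKN2D. Without untreated library A it was 0.0699 for MYBL2, and without untreated library B 0.116 for MYBL2 and 0.0997 for CDKN2D. With the length correction RBBP4 (-0.57), RING1 (0.51), MGA (-0.91), RYBP (-0.71), CDKN2D (0.24), CDK6 (-0.38) and GINS2 (0.73) lost their calls. With library totals MYBL2 (0.14), RING1 (0.30) and CDKN2D (0.31) lost theirs. LIN52, RBBP4, MGA, CDK6 and CDKN2A have split tags.

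The difference between both irradiation effects was called for 11 of 36 E2F targets, 4 higher and 7 lower at 365 nm, at a median of -0.27 against -0.14 over all genes. Over all genes 10% were called as higher and 7.08% as lower. POLA1, the DNA polymerase alpha gene, was higher at 2.62, and RFC4 at -1.81 and CDT1 at -1.79 were lower. RB1 differed by 2.95 ± 0.69 (edgeR adjusted p 0.00222), having fallen at 254 nm. RBBP4 was called at 2.20, L3MBTL2 at -1.32, and CDKN2C and CCNE1 at -1.66 and -1.64. L3MBTL2 (-1.08), CDKN2C (-1.21) and CCNE1 (-1.19) lost their calls with the length correction, and with library totals RBBP4 (1.16) lost its call. Calls held without each library in turn for RB1 and POLA1. RBBP4 lost its call without 4SU with 365 nm library B (edgeR adjusted p 0.0797). L3MBTL2 lost it without each library except untreated library A (0.0595 to 0.245), and CCNE1 without each library except the untreated ones (0.0605 to 0.163). CDKN2C lost it without either library of 4SU with 365 nm, 4SU library A or 254 nm library A (0.0686 to 0.131). RFC4 lost it without 4SU with 365 nm library A, 4SU library A or 254 nm library B (0.0583 to 0.0607), and CDT1 without 4SU with 365 nm library B, 4SU library A, 254 nm library A or untreated library B (0.0581 to 0.105). DESeq2 did not call L3MBTL2, CCNE1 or CDT1, and CDT1 and RBBP4 have split tags.

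Genes with the pattern most like E2F1, E2F4 and TFDP1 were sought by Pearson's r of log2 CPM over the 8 libraries, among 6118 named genes of at least median level. The 8 points are 4 groups of 2 libraries and share the depth and length differences described above. For E2F1 these were TRAIP and GFOD2 (r = 0.98 each) and ZNF335 (0.98), for E2F4 RRS1, LRCH4 and ZNF335 (0.97 each), and for TFDP1 HS6ST2 (0.98), LSM14A and SUPT16H (0.97 each). Among the members E2F1 and E2F4 had an r of 0.96 over the same libraries, E2F3 and TFDP1 of 0.91 and E2F3 and E2F7 of 0.91. E2F1 and TFDP1 had an r of -0.63, E2F1 being highest and TFDP1 lowest after 254 nm.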

How the data were processed

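The authors deposited, per library, expected counts of tags per transcript, the transcript length and a signal of tags per 100 nt per 1000000 tags, per the file headers. Fractional values mean that a tag was shared among the transcripts it matched. The sources used here do not give the aligner, genome build or annotation release. The deposited signal equals counts over length and was not used further.

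Accessions were named from RefSeq (15886 of 25005 transcripts) or GENCODE (134), and 8985 stayed unnamed. Expected counts were rounded and the 8 libraries of the 4 groups fitted in edgeR 4.0.16 (R 4.3.3) with TMM factors, filterByExpr and 1 mean per group. Quasi-likelihood tests were two-sided, adjusted by Benjamini-Hochberg over 13747 genes and called at an adjusted p under 0.05, with 4 residual and 39 prior degrees of freedom. The SE is the size of the log2 fold change over the square root of F. The length correction used a lowess trend per library (span 0.5). The siRNA pair had its own TMM factors and exact binomial intervals. DESeq2 1.42.0 was an alternative, and the fit was checked on simulated data.

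The members and gene lists were chosen with earlier results of these data known. Beside all members, text names up to 2 called genes per direction and list with the largest change, the 3 genes most like E2F1, E2F4 and TFDP1, and ELAVL1. LIN9, LIG1, POLA2, POLE2, CD3E, ALB and APOA1 were listed but not analysed here. Some genes that the rule takes are named nowhere in the text and their values are not reported here.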

Additional observations from a re-analysis of the deposited data

Results flagged for a closer look

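The difference between the 365 nm effect in 4SU cells and the 254 nm effect was tested and called for 2 of 9 members. Over all 13747 genes tested, 17.1% were called, 7.08% as lower. Wavelength and 4SU cannot be told apart in this difference. It was -1.84 on the log2 scale for E2F4 (edgeR adjusted p 0.00633, n = 2 libraries in each of 4 groups). It was -1.33 for E2F1 (edgeR adjusted p 0.0400). With TMM factors both libraries after 4SU with 365 nm were below both 4SU libraries for each gene. Both libraries after 254 nm were above both untreated ones. Without these factors, per length and library total, the groups at 254 nm overlapped. E2F1 had 58.9 and 50.3 after 254 nm, against 71.8 and 55.4 in untreated cells. E2F4 had 41.7 and 26.9 after 254 nm, against 43.2 and 30.2 untreated. The E2F1 call was lost in DESeq2 (adjusted p 0.0580) and with RLE factors (edgeR adjusted p 0.0885). It was lost without the filter (0.0824) and with the length correction (0.0934), and E2F4 kept its call in these settings. E2F1 and E2F4 have 62.5% and 58.1% G and C, and E2F2, which had a difference of -0.40 without a call, has 57.5%. E2F2 was called lower at 254 nm, but not after the length correction. The part of base composition was not tested.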

How the results depend on the processing

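The alternatives were run for each comparison of the 4 groups, except that the difference of both effects could not be fitted on the compared groups alone, which it needs in full. Genes called with 4SU (1034) numbered 593 in DESeq2 (251 higher, 342 lower), 675 with library totals (436 and 239), 687 with the compared groups alone (405 and 282) and 1707 with the replicate block (864 and 843). Members called with 4SU numbered 2 with the replicate block, which added E2F8 (edgeR adjusted p 0.0294), and 2 with the length correction. At 254 nm the replicate block added E2F4 (0.0376). It changed no other member's call. The labels do not say that A and B mark a shared culture or day. The correlation of the B minus A differences between groups ran from -0.08 to 0.35, highest between 4SU and untreated cells, so pairing by letter was not established. For the difference of both effects, library totals called 4959 genes (492 higher, 4467 lower) against 2349, and 1 member was called in DESeq2, with RLE factors and without the filter, against 2.

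The split of higher and lower calls moved with the scaling. At 365 nm it was 3597 and 4604 with TMM, 1021 and 9986 with library totals, 3824 and 2787 in DESeq2, 4039 and 3570 with RLE factors, and 3794 and 2594 with the length correction. At 254 nm library totals gave 1388 and 6469 against 3471 and 3849. For the difference it was 1598 and 448 in DESeq2, 1674 and 603 with RLE factors and 1895 and 755 with the length correction, against 1376 and 973. The median log2 fold change of all genes at 365 nm was -0.50 with TMM, -2.39 with library totals, -0.24 with RLE factors and -0.14 with the length correction. All 9 members were called lower at 365 nm with library totals, where 9986 of the 13747 genes tested were called lower.

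Leaving out 1 library gave 247 to 2675 genes and 0 to 2 members called with 4SU, 5218 to 8901 genes and 5 to 7 members at 365 nm, 5140 to 8018 genes and 3 to 6 members at 254 nm, and 1104 to 3471 genes and 0 to 3 members for the difference. The activator to repressor ratio was 2.62, 1.70, 1.92 and 1.47 without division by length in 4SU with 365 nm, 4SU, 254 nm and untreated cells, and 2.19, 1.2, 1.73 and 1.13 after the length correction, where the 4SU with 365 nm group was again highest.

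Signs changed as follows. With library totals E2F1 (-0.22) and E2F4 (-0.10) at 254 nm, LIN37 (-0.84) and CBX3 (-0.57) at 365 nm, and the differences of E2F3 (-0.48), E2F7 (-0.31) and TFDP1 (-0.23) changed sign. TFDP1 at 365 nm was at 0.020 in DESeq2 and with RLE factors and at 0.20 with the length correction, which also gave E2F2 at 254 nm 0.068 and LIN37 at 365 nm -0.018. Leaving out 1 library moved E2F5 with 4SU between -0.57 and 0.078, TFDP1 with 4SU between -0.34 and 0.24, E2F5 at 365 nm between -2.40 and 0.044, E2F6 at 254 nm between -0.97 and 0.26, and the differences of E2F5 between -2.07 and 0.36 and of E2F7 between -0.31 and 1.27. E2F5 was called at 365 nm without 4SU with 365 nm library A, which left library B with 2 tags. E2F6 was called with 4SU (1.71) without untreated library A. The causes were not tested. Counts of 2 to 10 tags per crosslinked library limit E2F6, E2F7 and E2F8, and counts of 7 and 2 tags after 4SU with 365 nm limit E2F5.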

Other observations

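E2F5, a repressor that works with the pocket proteins, had 277 tags in the HuR siRNA library and 381 in the GFP siRNA library, against 36 and 40 tags in the untreated libraries A and B. Divided by the library totals, these were 17.6 and 25.2 tags per 1000 nt per 1000000 tags with the HuR and the GFP siRNA, against 6.66 and 9.58 in the untreated libraries. Transfection and library cannot be told apart here.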
